A study of Mus musculus with 12 samples.

Results

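The E2F family of transcription factors was examined in RAW264.7 cells, a mouse macrophage line, with and without the transcription factors TFEB and TFE3 and with and without DNA damage. Members were taken by symbol from the gene count table, as the rows for E2f1 to E2f8. All 8 were found among 32688 genes, and all 8 were among the 18066 genes that passed the filter on low counts and were tested. The rule used no measured value. In GRCm38 coordinates the activator genes were E2f1 (ENSMUSG00000027490.17, chromosome 2, 154559407 to 154569892), E2f2 (ENSMUSG00000018983.9, chromosome 4, 136172394 to 136196057) and E2f3 (ENSMUSG00000016477.17, chromosome 13, 29906575 to 29986063). The other members were E2f4 (ENSMUSG00000014859.9, chromosome 8, 105297663 to 105305370), E2f5 (ENSMUSG00000027552.14, chromosome 3, 14578641 to 14606309), E2f6 (ENSMUSG00000057469.7, chromosome 12, 16810963 to 16839742), E2f7 (ENSMUSG00000020185.16, chromosome 10, 110745439 to 110787384) and E2f8 (ENSMUSG00000046179.17, chromosome 7, 48866429 to 48881596).

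E2F proteins decide when a cell transcribes the genes for DNA replication. The activators E2F1, E2F2 and E2F3 bind DNA with a DP partner and are held back by the retinoblastoma protein until G1 cyclins and their kinases release them, whereas E2F4 and E2F5 work mainly as repressors with the pocket proteins p107 and p130. E2F6 represses without a pocket protein, through Polycomb complexes, and the atypical members E2F7 and E2F8 repress without a DP partner and are themselves transcribed in S phase as E2F targets.

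RNA was sequenced from 4 groups with 3 libraries each: Null control, DKO control, Null etoposide and DKO etoposide. DKO cells are RAW264.7 cells in which TFEB and TFE3, related transcription factors of lysosomal and stress genes, were disrupted by CRISPR, and Null cells are the matching line, which the study's text treats as wild type. Etoposide, a topoisomerase II poison that breaks DNA, was given at 100 µM for 8 h. Control cells are untreated by the labels, while the study's methods name DMSO. Each genotype appears to be 1 line, so genotype and line cannot be told apart. The study describes the etoposide samples as independent, while the labels do not say how the libraries of a group were obtained, so p-values measure the spread between these libraries, which may be partly technical.

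Libraries held 29837255 to 61809316 counts. Levels are given as CPM, counts scaled to a common library size. As a check of the labels, Tfeb measured 16.6 to 17.2 CPM in Null control and 3.14 to 5.25 CPM in DKO control libraries, and Tfe3 measured 89.4 to 119 CPM against 31.5 to 42.5 CPM, so transcripts of both were lower but still present in DKO cells. With etoposide the gap in Tfeb was smaller, 7.1 to 7.95 CPM against 4.27 to 4.44 CPM in DKO libraries, and that in Tfe3 was 99.1 to 103 CPM against 34.2 to 40.4 CPM. The DKO etoposide titles carry the word MEFs, although the other labels of these 3 libraries name RAW264.7. Their 8 macrophage markers summed to 4599 to 4775 CPM and their 8 fibroblast markers to 1.02 to 1.2 CPM, with Col1a2 at 0 in a library, while over the other libraries these sums were 4191 to 5110 CPM and 0.152 to 2.03 CPM. Fcgr1, the lowest macrophage marker, went down to 4.72 CPM in the DKO etoposide libraries. In bulk RNA, fewer cells expressing a gene and less RNA of it per cell cannot be told apart.

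Promoter sequences are shown for the members that fell furthest and for E2f3, an activator that fell little, because E2F genes are themselves targets of E2F and of the DREAM complex. Of the 8 members, 6 were matched by symbol to the RefSeq promoter table used here, covering 250 bases before to 50 bases after a start site in GRCm38.p6. E2f4 and E2f5 are not shown. Both strands were searched for the E2F sites TTTCCCGC, TTTGGCGC, TTTCGCGC and TTTGCCGC, for the cell cycle homology region (CHR) as TTTGAA or TTCGAA, for the E-box CACGTG bound by TFEB and TFE3, and for TCACGTGA, which holds that E-box within it. Sequences run 5′ to 3′ on the strand of the gene, and capitals mark the matches, which read as the reverse complement where the motif lies on the other strand.
E2f7 (chr10:110745189-110745488, plus strand): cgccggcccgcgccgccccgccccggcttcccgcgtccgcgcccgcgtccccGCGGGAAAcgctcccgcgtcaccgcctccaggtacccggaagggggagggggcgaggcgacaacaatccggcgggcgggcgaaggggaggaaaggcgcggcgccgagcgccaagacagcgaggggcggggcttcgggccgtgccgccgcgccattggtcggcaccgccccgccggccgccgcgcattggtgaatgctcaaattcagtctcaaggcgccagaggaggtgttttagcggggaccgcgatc
E2f8 (chr7:48881547-48881846, minus strand): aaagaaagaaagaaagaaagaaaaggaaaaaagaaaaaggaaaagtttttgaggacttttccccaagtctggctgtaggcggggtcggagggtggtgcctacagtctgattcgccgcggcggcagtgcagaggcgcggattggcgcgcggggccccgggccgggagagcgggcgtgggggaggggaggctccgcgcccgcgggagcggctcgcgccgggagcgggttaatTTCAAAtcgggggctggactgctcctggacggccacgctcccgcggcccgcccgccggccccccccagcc
E2f2, upstream start (chr4:136172024-136172323, plus strand): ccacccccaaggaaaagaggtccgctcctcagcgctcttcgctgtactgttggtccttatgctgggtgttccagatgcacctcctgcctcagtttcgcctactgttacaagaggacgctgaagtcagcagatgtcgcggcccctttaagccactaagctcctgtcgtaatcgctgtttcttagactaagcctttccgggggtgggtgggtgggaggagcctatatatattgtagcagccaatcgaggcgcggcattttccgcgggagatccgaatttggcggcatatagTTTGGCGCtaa
E2f3, upstream start (chr13:29986014-29986313, minus strand): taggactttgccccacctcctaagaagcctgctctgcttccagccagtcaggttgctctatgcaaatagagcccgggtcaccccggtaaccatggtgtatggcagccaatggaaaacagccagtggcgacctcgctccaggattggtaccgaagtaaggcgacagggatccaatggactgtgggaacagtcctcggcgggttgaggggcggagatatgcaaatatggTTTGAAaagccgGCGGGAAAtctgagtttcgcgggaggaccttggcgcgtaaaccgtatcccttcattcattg

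The E2f7 promoter held TTTCCCGC on the opposite strand, from -198 to -191 relative to the start. E2f8 held the CHR letters TTTGAA on the opposite strand from -20 to -15 and none of the E2F letters searched. E2f2 held TTTGGCGC from 40 to 47 at its upstream start and TTTGAA from -31 to -26 at its second start. E2f3 held both kinds, TTTCCCGC on the opposite strand from -11 to -4 and TTTGAA on its own strand from -23 to -18. The E-box CACGTG appeared once, at the second E2f3 start, from -24 to -19. The E2f1 and E2f6 windows matched none of these letters, but the E2f1 window is set on a RefSeq start 466 bases inside the GENCODE gene and lies wholly downstream of its 5′ end, so the sequence before that end was not searched. The upstream E2f2 start lies 120 bases before the GENCODE gene. Over 32851 promoters of the same length, any of the E2F sites occurred in 2.26%, any CHR in 19.2% and CACGTG in 7.15%, so the CHR match is common and the E2F match is not. These are matches of letters, not measured binding.

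**Figure D1:**
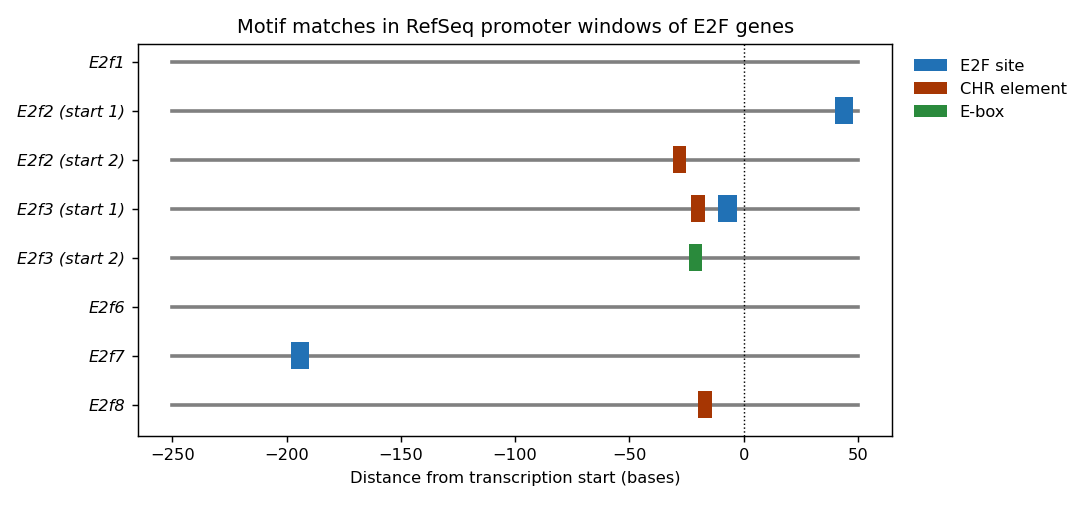
Motif matches in the RefSeq promoter windows of 6 E2F genes, with distance from the transcription start in bases on the x axis and 1 line for each annotated start. E2F sites (blue) appear at E2f2, E2f3 and E2f7, CHR elements (red) at E2f2, E2f3 and E2f8, and the E-box (green) at the second E2f3 start; marks are drawn at least 6 bases wide.

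E2f4 was the most abundant family member in every group. Per kilobase of exon, the scale on which different genes can be compared, it averaged 109 ± 44.9 CPM per kb in Null control and 104 ± 28.4 CPM per kb in DKO etoposide cells (SD, n = 3). The atypical E2f8 came second in Null control cells, at 17.8 ± 3.44 CPM per kb, followed by E2f2 (8.32 ± 0.673) and E2f3 (7.27 ± 0.111). E2f5, E2f1, E2f6 and E2f7 followed at 4.77, 4.33, 4.1 and 3.76 CPM per kb, and each of these overlapped its neighbour in the order. In DKO etoposide cells the order below E2f4 changed. E2f3 came second at 5.6 ± 0.199 CPM per kb, E2f2 (2.29) and E2f1 (2.28) overlapped, and E2f8 (1.46 ± 0.189) and E2f7 (0.523 ± 0.0479) were the lowest, separate from each other and from all other members. Parts of this order depended on the length used. With the longest transcript as length, E2f7 stayed lowest in DKO etoposide cells. There E2f8 (8.88% of the family without E2f4) overlapped E2f2 (9.77%) and E2f1 (10.8%). In Null control cells the order below E2f3 became E2f6, E2f7, E2f1 and E2f5 on that length.

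The make-up of the family shifted accordingly. Of the summed E2F level per kb, E2f7 and E2f8 together made up 13.9% ± 1.78 (Null) and 12.3% ± 1.86 (DKO) in control cells, and 8.98% ± 0.0947 (Null) and 1.63% ± 0.213 (DKO) after etoposide (SD, n = 3). With E2f4 left out, because of the 8 it varied most between replicates of a group on the log2 scale, the atypical pair made up 42.5% ± 3.99, 41.8% ± 5.46, 31% ± 0.248 and 9.96% ± 1.21 of the other 7 in the same order of groups. The activators E2f1 to E2f3 made up 13.2%, 12.1%, 12.3% and 8.55% of all 8 in this order, and 39.7%, 39.2%, 42.3% and 51.2% of those 7, so the direction of their share depended on whether E2f4 was counted. A share of the family also rises when the other members fall. The level of the atypical repressors per unit of activator thus went from a ratio of 1.08 ± 0.157 to 0.733 ± 0.0206 with etoposide in Null cells and from 1.08 ± 0.238 to 0.195 ± 0.0282 in DKO cells. With the length of the longest transcript in place of all exons, the atypical share of the 8 was 16.6%, 14.8%, 11% and 2.02%.

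**Figure D2:**
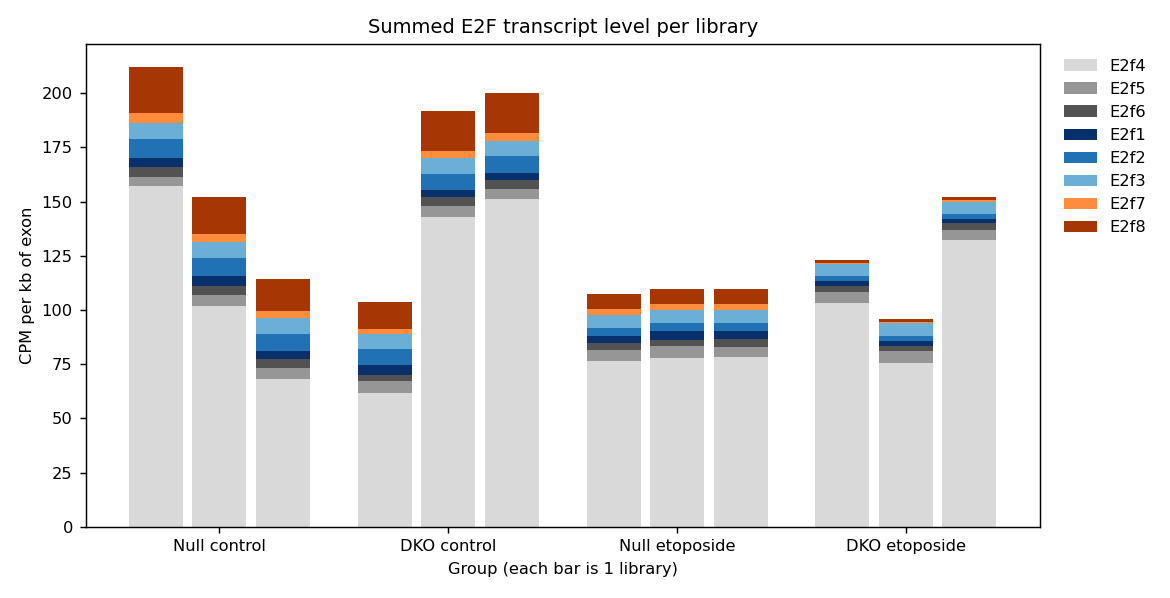
Summed E2F transcript level in each of the 12 libraries, in CPM per kb of exon on the y axis, with 1 bar per library and colours for the 8 genes. E2f4 (light grey) fills most of every bar and differs between replicates of 3 groups, while the orange and brown segments of E2f7 and E2f8 are thinnest in the 3 DKO etoposide bars.

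The first comparison asked how the family responded to etoposide in Null cells. Of the 8 members, 4 fell, E2f2, E2f3, E2f7 and E2f8, and the other 4 did not pass the test (limma-trend with Benjamini-Hochberg, BH, adjustment over all genes, at 0.05). Among all genes tested 39.6% were called, 18.7% as lower. The median log2 difference, etoposide minus control, was -0.36 over the members and 0.03 over all genes. In 6 members every etoposide library was below every control library, which 24.9% of all genes also showed.

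In DKO cells 6 of the 8 fell with etoposide, the same 4 with E2f1 and E2f6, where 39.3% of all genes were called and 19.1% as lower. The median over the members was -0.56, against 0.03 over all genes. In 5 members the groups did not overlap, with etoposide lower, against 22.2% of all genes.

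Before the drug no difference between the genotypes was called. None of the 8 was called between DKO and Null control cells by BH-adjusted limma-trend, where 19.3% of all genes were, and the count was also 0 at an unadjusted p under 0.05, by edgeR and by DESeq2. Member differences ran from -0.22 to 0.10 on the log2 scale, and the ranges of 2 SE lay within -0.48 to 0.34 for 7 members and from -0.60 to 0.79 for E2f4. After etoposide 4 members, E2f1, E2f2, E2f7 and E2f8, were lower in DKO cells, while 33.6% of all genes were called and 17.8% as lower. In 5 members, these 4 and E2f3, every DKO library was below every Null library, against 28.1% of all genes.

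The difference between the 2 etoposide responses, DKO minus Null, was tested as an interaction. It was called in 3 members, E2f2, E2f7 and E2f8, each with the larger fall in DKO cells, against 9.45% of all genes called and 6.39% as lower. These comparisons share libraries, so their counts are not independent of each other.

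**Figure D3:**
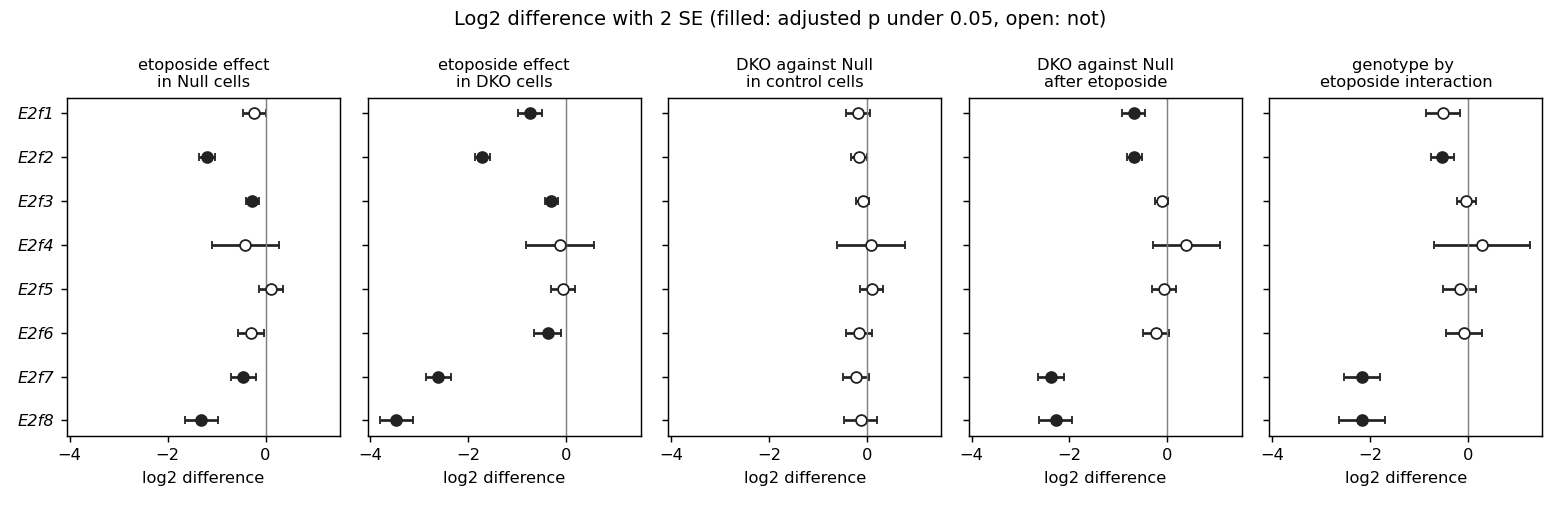
Log2 difference of each of the 8 E2F genes (x axis) in the 5 comparisons, with bars of 2 SE from limma-trend and filled points at an adjusted p under 0.05. The control comparison holds only open points, whereas E2f7 and E2f8 lie beyond -2 in DKO cells with etoposide, against Null cells after etoposide and in the interaction.

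E2f1, the member best known for activating both S phase and apoptosis genes, measured 13.4, 15.1 and 12.5 CPM in Null control and 10.5, 12.2 and 12.2 CPM in Null etoposide libraries. It measured 13.6, 11.2 and 11.4 CPM in DKO control and 7.72, 7.56 and 6.28 CPM in DKO etoposide libraries. The DKO etoposide libraries were thus the lowest of all 12 and overlapped no other group. E2f1 fell 1.67-fold with etoposide in DKO cells (log2 difference -0.74, SE 0.12, limma-trend, BH-adjusted p 0.000359), while in Null cells the difference was -0.23 (adjusted p 0.152). After etoposide it was 1.62-fold lower in DKO than in Null cells (log2 -0.69, adjusted p 0.000708). The interaction was -0.51 (SE 0.17) and missed the threshold (limma-trend, BH-adjusted p 0.0908), but passed it by DESeq2 (-0.50, adjusted p 0.0497).

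E2f2, an activator that overlaps E2F1 and E2F3 in function, responded most among the activators. It measured 43.8, 40.8 and 37.3 CPM in Null control and 37, 35 and 37.8 CPM in DKO control libraries, and the control groups overlapped. With etoposide it measured 17.2, 18 and 18.1 CPM in Null and 11.8, 11.2 and 10.6 CPM in DKO libraries. Every treated library was below every control library, and the treated genotypes were separate. E2f2 fell 2.28-fold in Null cells (log2 -1.19, SE 0.0805, limma-trend, BH-adjusted p 2.48e-07) and 3.27-fold in DKO cells (log2 -1.71, adjusted p 5.37e-09). The interaction of -0.52 (SE 0.114, limma-trend, BH-adjusted p 0.0118) passed in every alternative tried, with adjusted p from 0.00112 to 0.04.

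E2f3, the third activator, moved little and evenly. Null libraries measured 40, 38.8 and 39.6 CPM as controls and 32.8, 33.4 and 32.2 CPM with etoposide, and DKO libraries 36.2, 39.6 and 36.2 CPM and then 29.2, 30.9 and 31.1 CPM. Treated libraries lay below control libraries in both genotypes without overlap. It fell by 0.27 on the log2 scale in Null cells (limma-trend, BH-adjusted p 0.00638) and by 0.30 in DKO cells (adjusted p 0.00324). The interaction was -0.03, with a range of 2 SE from -0.22 to 0.16.

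**Figure D4:**
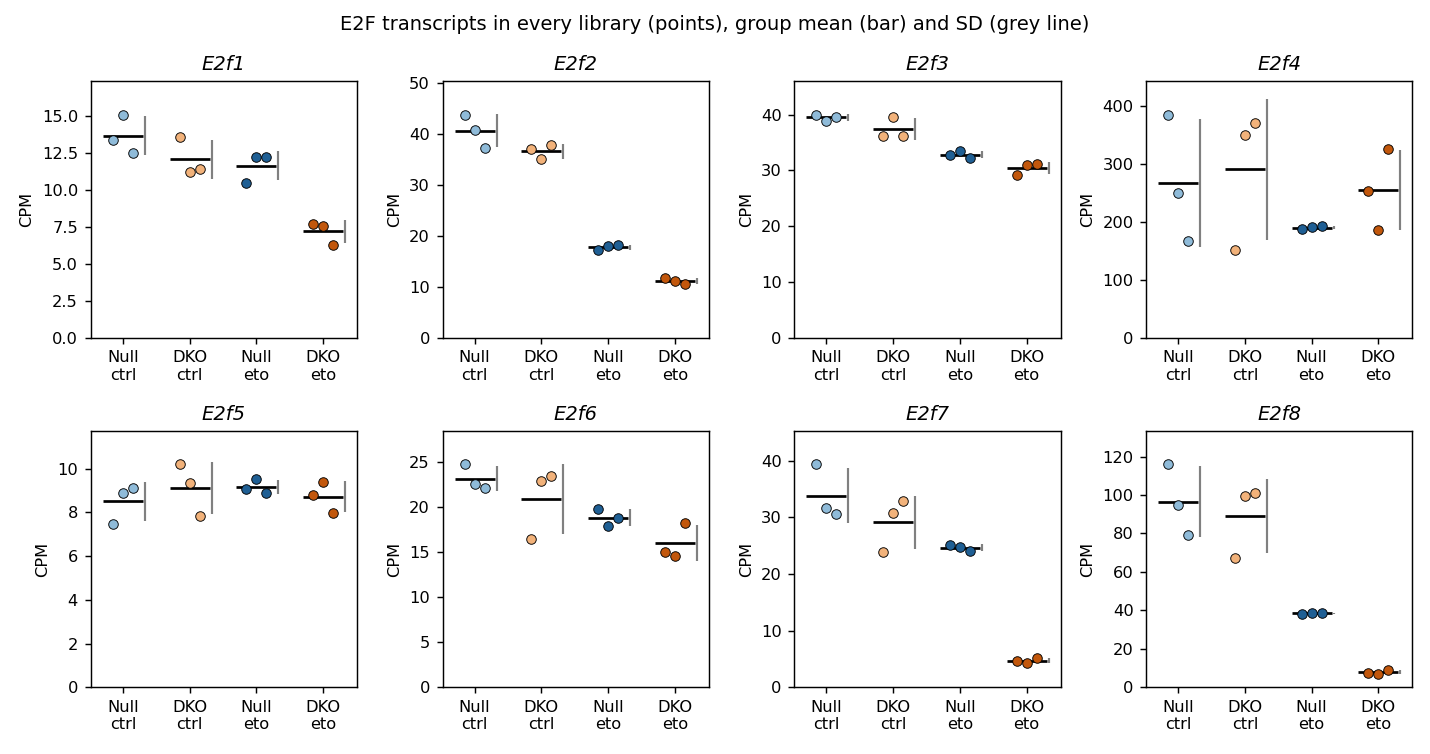
CPM of each E2F gene in every library (y axis from 0, a separate scale per gene) for the 4 groups on the x axis (ctrl, control; eto, etoposide), with the group mean as a bar and the SD as a grey line beside it. E2f7 and E2f8 drop in the 3 DKO etoposide libraries to at most 5.16 and 9.09 CPM, E2f2 drops in both treated groups, and E2f4 spreads from 151 to 385 CPM with overlap in every comparison.

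E2f4, the main repressor E2F of resting cells, did not pass the test in any comparison. Null libraries measured 385, 250 and 167 CPM as controls and 187, 191 and 192 CPM with etoposide. DKO libraries measured 151, 350 and 371 CPM as controls and 253, 186 and 325 CPM with etoposide. The Null etoposide libraries lay close together (SD 2.5 CPM), whereas the libraries of each other group lay further apart, and all 4 groups overlapped. Its SD between replicates, 0.513 on the log2 scale, was larger than that of 89.7% of the genes tested. The difference was -0.41 with etoposide in Null cells (2 SE range -1.11 to 0.28) and -0.12 in DKO cells (-0.81 to 0.57), so differences within these ranges were not detectable here.

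The scatter of E2f4 was set beside that of all genes. E2f4 deviated from its group mean by 0.61 (log2) in Null control replicate 1 and by -0.59 in replicate 3, by -0.84 in DKO control replicate 1, and by -0.42 and 0.39 in DKO etoposide replicates 2 and 3. Across all genes tested, the deviations of Null control replicate 1 correlated with those of the same 4 libraries at r = -0.79, -0.54, -0.40 and 0.37. Null control replicate 2 did not follow, with r = -0.53 and an E2f4 deviation of -0.01. This is a correlation across genes, which are not independent replicates, and libraries of 1 group share a mean, which sets part of it. Among the control libraries E2f6, E2f7 and E2f8, like E2f4, were highest in Null control replicate 1 and lowest in DKO control replicate 1. E2f3 did so with DKO control replicate 3 tied for lowest, E2f5 showed the reverse, and E2f1 and E2f2 showed neither. Counts of 8043 to 19746 make counting error small for E2f4. The labels name 2 RNA kits without saying which library had which, and the part of the kit in this spread was not tested.

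E2f5, the other pocket-bound repressor, varied least over the 12 libraries (root mean square deviation from its mean 0.122 on the log2 scale). Null libraries measured 7.46, 8.9 and 9.13 CPM as controls and 9.08, 9.51 and 8.9 CPM with etoposide, and DKO libraries 10.2, 9.32 and 7.84 CPM and then 8.81, 9.38 and 7.96 CPM. All groups overlapped, and the differences lay between -0.17 and 0.11 on the log2 scale over the 5 comparisons. The etoposide difference was 0.11 in Null cells (2 SE range -0.13 to 0.35) and -0.06 in DKO cells (-0.30 to 0.18). Its exons overlap those of 1810022K09Rik on the opposite strand by 26 bases. If counting ignored strand and that gene was covered evenly, up to 18% of the E2f5 counts in a library could come from it. Uneven coverage could make this share larger or smaller.

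E2f6, the pocket-independent repressor, tended lower with etoposide. It measured 24.8, 22.6 and 22.2 CPM in Null control and 19.8, 17.9 and 18.8 in Null etoposide libraries, which did not overlap. DKO control libraries measured 16.5, 22.9 and 23.5 CPM and DKO etoposide libraries 15.1, 14.6 and 18.3 CPM, which overlapped through DKO control replicate 1. The difference was -0.30 in Null cells (limma-trend, BH-adjusted p 0.0956) and -0.38 in DKO cells (adjusted p 0.0406). The difference in Null cells passed in 2 alternatives. The call in DKO cells was lost in 13 alternatives, among them leaving out any DKO control replicate but the first, and its adjusted p reached 0.15 without DKO etoposide replicate 2.

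E2f7, an atypical repressor, fell furthest in DKO cells after E2f8. It measured 39.4, 31.6 and 30.6 CPM in Null control and 25.2, 24.7 and 24 CPM in Null etoposide libraries. DKO control libraries measured 23.9, 30.7 and 32.9 CPM, and DKO etoposide libraries 4.67, 4.3 and 5.16 CPM. The 3 DKO etoposide libraries stood far below the other 9, which ran from 23.9 to 39.4 CPM. E2f7 fell 6.09-fold with etoposide in DKO cells (log2 -2.61, SE 0.13, limma-trend, BH-adjusted p 9.39e-09) and 1.37-fold in Null cells (log2 -0.45, adjusted p 0.0157). After etoposide it was 5.19-fold lower in DKO than in Null cells (log2 -2.38, adjusted p 2.97e-08). The fall in Null cells was lost without Null control replicate 1 (-0.34, limma-trend, BH-adjusted p 0.0606) or Null etoposide replicate 3 (-0.43, adjusted p 0.0534), while the interaction of -2.16 (SE 0.184, adjusted p 7.55e-06) ran from -2.30 to -2.06 over all alternatives.

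E2f8, the partner of E2F7 in repressing E2F targets, fell in both genotypes and furthest in DKO cells. Null libraries measured 116, 94.6 and 79.1 CPM as controls and 37.9, 38.8 and 38.6 CPM with etoposide. DKO libraries measured 67.1, 99.3 and 101 CPM as controls and 7.52, 7.15 and 9.09 CPM with etoposide. The control groups overlapped, and both treated groups were separate from them and from each other. The fall was 2.48-fold in Null cells (log2 -1.31, SE 0.167, limma-trend, BH-adjusted p 5.39e-05) and 11.1-fold in DKO cells (log2 -3.47, adjusted p 6.69e-09). After etoposide the DKO level was 4.85-fold below that of Null cells (log2 -2.28, adjusted p 4.44e-07). The interaction was -2.16 (SE 0.236, limma-trend, BH-adjusted p 6.92e-05), the same as for E2f7, and only 1.07% of all genes tested had a lower value than either. Assuming even coverage, up to 1.18% of the E2f8 counts in a library, and 0.113% of those of E2f7, could come from an antisense gene.

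The DP partners, which E2F1 to E2F6 need to bind DNA, are Tfdp1 and Tfdp2, and Tfdp2 fell in both genotypes. Tfdp2 fell from 30, 35.8 and 37.8 to 18.6, 19.8 and 18.8 CPM with etoposide in Null cells, and from 35.6, 34.8 and 33.2 to 14.9, 15.3 and 14.1 CPM in DKO cells. The groups did not overlap, and the log2 differences were -0.85 and -1.22 (limma-trend, BH-adjusted p 1.09e-05 and 3.77e-07). After etoposide the DKO libraries lay below all Null libraries, a log2 difference of -0.36 (BH-adjusted p 0.00735, limma-trend), while control cells overlapped (0.01). Tfdp1 did not pass with etoposide in Null cells (-0.20, limma-trend, BH-adjusted p 0.112), and in DKO cells its value of -0.30 (BH-adjusted p 0.0216) lost the call in 4 alternatives. It measured 139, 146 and 149 CPM in Null etoposide and 108, 118 and 108 CPM in DKO etoposide libraries, a log2 difference of -0.38 (limma-trend, BH-adjusted p 0.00757). Between control cells the difference was -0.27 (BH-adjusted p 0.0595) and passed in 5 alternatives. Neither partner passed the interaction test (limma-trend, BH-adjusted p 0.0999 for Tfdp2 and 0.759 for Tfdp1).

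The pocket proteins, which hold E2F proteins in repressive complexes, moved apart from each other. Rbl2 (p130), the pocket protein of the DREAM complex, rose with etoposide in Null cells from 34.6, 34.4 and 35.4 to 85.9, 80.1 and 84.4 CPM. In DKO cells it went from 29.3, 34.3 and 31.9 to only 39, 40.8 and 39.9 CPM. The rise was 1.26 on the log2 scale in Null cells (limma-trend, BH-adjusted p 5.32e-08) and 0.33 in DKO cells (adjusted p 0.00262), and the interaction was -0.93 (adjusted p 5.59e-05). Assuming even coverage, overlapping genes on the opposite strand could hold up to 7.62% (Aktip) and 13.8% (Gm45464) of the Rbl2 counts in a library. Rbl1 (p107), itself an E2F target, went the other way, from 131, 135 and 148 to 92.3, 86.1 and 90.5 CPM in Null cells and from 132, 126 and 127 to 43.9, 47.2 and 44.1 CPM in DKO cells. Its log2 differences were -0.62 and -1.51, with an interaction of -0.89 (limma-trend, BH-adjusted p 6.02e-05). Rb1, the retinoblastoma gene, measured 49.4, 42.7 and 47 CPM in Null etoposide and 29.2, 32.3 and 28.1 CPM in DKO etoposide libraries (log2 -0.63, limma-trend, BH-adjusted p 0.00148), and its interaction did not pass (-0.24, adjusted p 0.514). It was also lower in DKO control than in Null control cells (-0.39, limma-trend, BH-adjusted p 0.0393), a call lost in 11 alternatives, among them leaving out Null control replicate 2 or 3 or DKO control replicate 2 or 3, with an adjusted p of up to 0.161.

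Genes that E2F proteins activate at G1/S fell in both genotypes. Of 35 such genes, 29 fell with etoposide in Null cells (median log2 -0.57) and all 35 fell in DKO cells (median -1.64), against 18.7% and 19.1% of all genes. Between control cells 10 were lower and 2 higher in DKO cells, with a median of -0.21, where 19.3% of all genes were called, and Mcm5, a subunit of the replicative helicase, had the largest fall there (-1.15, limma-trend, BH-adjusted p 4.18e-08). Of the 2 that were higher, Ccne2 (0.30) lost the call in 10 alternatives and Cdc25a (0.42) in 1. After etoposide 33 had lower levels in DKO cells (median -1.17), against 17.8% of all genes, and 30 passed the interaction test, all downward (median -0.90), against 6.39%. Over all genes these medians were between -0.01 and 0.03. Tk1, which salvages thymidine, fell by 1.84 in Null and by 3.29 in DKO cells, Pola1, the catalytic subunit of DNA polymerase alpha, fell by 1.85 in Null cells, and Rad51ap1, a recombination factor, fell by 2.97 in DKO cells. Rrm2, the small subunit of ribonucleotide reductase, had the lowest interaction value of the list (-2.48, SE 0.112, limma-trend, BH-adjusted p 2.34e-08).

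Genes of G2 and mitosis, which the DREAM complex and its MuvB core control, fell further in DKO cells. Of 20, 15 fell in Null cells (median -0.62) and all 20 fell in DKO cells (median -3.22), and all 20 passed the interaction test (median -2.93), against 18.7%, 19.1% and 6.39% of all genes called lower. Cenpf, a kinetochore protein, fell by 5.52 and Ccnb2, a mitotic cyclin, fell by 5.47 on the log2 scale in DKO cells. In Null cells the largest falls were those of Bub1b, a spindle checkpoint kinase (-1.43), and Kif11, a spindle motor (-1.18). Between control cells 1 gene differed, Kif23, which was higher in DKO cells (0.80, limma-trend, BH-adjusted p 1.52e-06), where 19.3% of all genes were called. Among 7 MuvB subunits and activators, 4 fell in Null and 6 in DKO cells, against 18.7% and 19.1% of all genes. The activators Mybl2 (-0.51 and -2.46) and Foxm1 (-1.03 and -2.66) fell furthest, with interactions of -1.95 and -1.64 (limma-trend, BH-adjusted p 1.66e-06 and 0.000324).

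**Figure D5:**
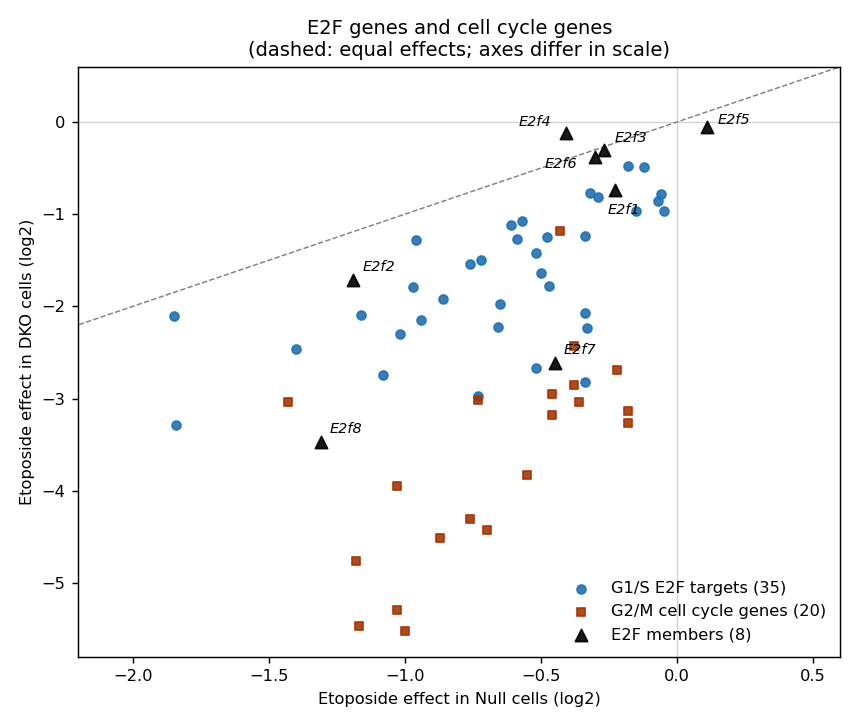
Etoposide effect in Null cells (x axis) against that in DKO cells (y axis), both as log2 differences, for the 8 E2F genes (black triangles), 35 G1/S targets (blue circles) and 20 G2/M genes (red squares), with a dashed line of equal effects and axes of different scale. E2f7 and E2f8 lie among the cell cycle genes well below the line, E2f1 and E2f2 closer to it, E2f3, E2f5 and E2f6 near it, and E2f4 above it.

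Upstream of the pocket proteins, 11 of 14 G1 cyclins, kinases and inhibitors were tested. With etoposide 5 fell and 1 rose in Null cells, where 39.6% of all genes were called, and 6 fell and 2 rose in DKO cells, where 39.3% were. Of these 2, 1 was Cdk4, the partner of D-type cyclins (0.20, limma-trend, BH-adjusted p 0.0297), whose call was lost in 7 alternatives, the replicate block included. Cdkn1a, the kinase inhibitor p21, rose by 3.03 on the log2 scale in Null and by 1.59 in DKO cells, from 48.2 ± 6.1 to 392 ± 5.16 CPM and from 107 ± 14.9 to 321 ± 31.7 CPM (SD, n = 3). Its interaction was -1.44 (limma-trend, BH-adjusted p 0.000118). Before the drug Cdkn1a was already called higher in DKO than in Null cells (limma-trend, BH-adjusted p 1.55e-05). After etoposide no difference between the genotypes was called (-0.29, limma-trend, BH-adjusted p 0.0779), so the smaller rise in DKO cells started from a higher control level. Cdkn2c, the inhibitor p18, had the largest fall of the list in DKO cells (-2.18, interaction -1.55). Ccnd2, a D-type cyclin, was lower in DKO cells before and after the drug (-1.93 and -2.36). Ccnd1, the more abundant D-type cyclin, was higher in DKO cells before and after the drug (0.57 and 0.80), from 401 ± 12.7 to 595 ± 24.2 CPM in control cells (SD, n = 3). Cdk6, another partner of D-type cyclins, was also higher (0.97 and 1.51), and it fell with etoposide in both Null and DKO cells (-1.52 and -0.98). Cdkn2a and Cdkn1c had at most 3 and 1 counts in a library and were not tested.

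The next list holds genes that E2F1 can activate in apoptosis. Of 8 tested, 6 rose with etoposide in Null cells, among them the BH3-only genes Pmaip1 (2.19) and Bbc3 (1.94), which are also p53 targets, against 20.9% of all genes called higher. In DKO cells 3 rose, against 20.2% of all genes, while Pmaip1 (0.14, limma-trend, BH-adjusted p 0.199) and Bbc3 (0.37, adjusted p 0.0812) did not pass. Both passed the interaction test, at -2.05 and -1.57 (limma-trend, BH-adjusted p 1.14e-07 and 0.000545).

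Among 7 genes that act on the stability of E2F proteins, 5 fell in Null and 4 in DKO cells, against 18.7% and 19.1% of all genes. Ccnf, the F-box protein cyclin F, which marks E2F7, E2F8 and activator E2Fs for degradation, fell by 2.27 on the log2 scale in DKO cells, with an interaction of -2.11 (limma-trend, BH-adjusted p 3.04e-07). Chek1, the checkpoint kinase CHK1, fell by 1.04 in Null and by 2.30 in DKO cells. Fbxw7, a substrate receptor of a ubiquitin ligase, fell by 0.62 in Null cells. Btrc, another such receptor, was higher in treated DKO than in treated Null cells (0.74), and its interaction of 0.55 (limma-trend, BH-adjusted p 0.0359) was lost in 8 alternatives.

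E2F6 represses within the Polycomb complex PRC1.6. Of 8 subunits of this complex, 1 fell and 1 rose with etoposide in Null cells, where 39.6% of all genes were called, and 3 fell and 1 rose in DKO cells, where 39.3% were. Cbx3, a heterochromatin protein, fell in both genotypes (-0.75 and -0.89), and Rnf2, a catalytic subunit, rose in Null cells (0.70). L3mbtl2 was lower in DKO cells before and after the drug (-1.21 and -1.23), and Rybp was lower in DKO control cells (-0.32) and more so after etoposide (-0.83, interaction -0.51). Of 12 germline genes that E2F6 and PRC1.6 silence, 10 were below the filter, with at most 14 counts in a library, and the other 2, Smc1b and Sycp3, reached at most 34 counts.

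The genes most like each member were found by the root mean square difference of log2 CPM over the 12 libraries, after each gene was centred on its own mean. Nearest to E2f7 were Ticrr, needed to start replication origins (0.0882), Plk4, the kinase of centriole duplication (0.107), and Rrm2 (0.145). Nearest to E2f8 were the histone gene Hist1h4b (0.208), the helicase gene Brip1 (0.222) and 4930558J22Rik (0.223). E2f2 was most like Bora (0.121), Msh3 (0.125) and Shmt2 (0.149), and E2f1 most like Msh5 (0.111), Senp1 (0.117) and Tinf2 (0.118). E2f4 was matched closely, spread included, by Cenpx (0.0546), Nabp2 (0.0728) and Stradb (0.0826). E2f3 was most like Rabepk (0.0446), E2f5 most like Fam57a (0.0483) and E2f6 most like Med14 (0.0505). Among the members the nearest pair was E2f3 and E2f6 (0.145), and E2f7 and E2f8 were 0.439 apart.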

How the data were processed

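RNA-seq gene counts of 12 RAW264.7 libraries were used. Raw counts per gene were deposited, which the authors made from read pairs aligned with HISAT2. The submitters' processing notes name mm10 and featureCounts, while the study's methods name HTSeq, and the strand setting is not given in the sources used here. Groups were taken from the sample titles. Symbols, exon lengths and coordinates came from GENCODE M21 (GRCm38) by gene identifier. A filter on low counts (filterByExpr, edgeR 4.0.16) left 18066 genes with 99.96% of all counts. Scaling factors from the trimmed mean of M values ran from 0.939 to 1.03, and log2 CPM were computed with a prior count of 3, which understates the change of low genes. Following the study, limma-trend with robust moderation (limma 3.58.1, R 4.3.3) was fitted to the 4 group means over the 12 libraries. Tests were two-sided with Benjamini-Hochberg (BH) adjustment over the genes tested, and genes were called at 0.05. Fold changes are the fitted log2 differences on a linear scale. Between replicates the variance was, at the median gene, 3.39 to 54.8 times the variance of counting error, so no library was a copy of another.

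Alternatives were DESeq2 size factors, library size alone, no filter, a prior count of 0.5, edgeR quasi-likelihood, the Wald test of DESeq2 1.42.0, a replicate block, no robust moderation, only the groups compared, and leaving out each library. The fit was tested on simulated data. The members and gene lists were chosen with earlier results of these data known, and no set test was run. Named genes were the 8 members, the DP and pocket proteins, Tfeb and Tfe3. Others were drawn, for each comparison and each other list, from up to 2 genes that rose most and 2 that fell most among those called. The 3 genes of most similar pattern per member were a further source. Not every gene selected in these ways is named. The result of 1 gene of the apoptosis list is not reported here. Promoters came from RefSeq (GRCm38.p6).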

Additional observations from a re-analysis of the deposited data

Results flagged for a closer look

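The etoposide response differed between DKO and Null cells, by the interaction in BH-adjusted limma-trend, in 3 E2F genes and in other genes named above. Among the members the interaction on the log2 scale was -2.16 for E2f7, -2.16 for E2f8 and -0.52 for E2f2, so each fell more in DKO cells, in which all 3 etoposide libraries lay below all 3 control libraries. Of the pocket proteins, Rbl1 (-0.89) fell more in DKO cells, and Rbl2 (-0.93) rose less. Among the regulators and targets, the value was -1.95 for Mybl2, -1.64 for Foxm1, -2.48 for Rrm2, -2.24 for Rad51ap1, -4.53 for Cenpf, -4.30 for Ccnb2, -1.55 for Cdkn2c, -2.11 for Ccnf, -1.26 for Chek1 and -0.51 for Rybp, and Btrc had the opposite sign (0.55). Cdkn1a (-1.44) rose less in DKO cells, and Pmaip1 (-2.05) and Bbc3 (-1.57), which rose in Null cells, did not pass with etoposide in DKO cells.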

How the results depend on the processing

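The number of E2F members called was 3 to 5 for etoposide in Null cells, 5 to 6 in DKO cells, 0 between control cells, 4 after etoposide and 3 to 4 for the interaction over all alternatives. With the replicate block, a paired fit, these counts were 4, 5, 0, 4 and 3. It lost the call of E2f6 in DKO cells (-0.38, limma-trend, BH-adjusted p 0.0623) and that of Rb1 between control cells (-0.39, BH-adjusted p 0.0832). Same-numbered libraries of different groups correlated at -0.542 to 0.394, and differently numbered ones at -0.494 to 0.58. The ranges were alike, so these correlations cannot show whether libraries were paired, and the labels do not say. The count of all genes called between control cells fell from 3490 to 2070 with only the groups compared.

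Directions turned only in values that were not called. Scaling by library size alone turned E2f5 with etoposide in DKO cells to 0.00, the interaction of E2f3 to 0.01 and Tfdp2 between control cells to -0.08. Tfdp2 was also -0.01 with DESeq2 size factors and by DESeq2, and -0.00 by edgeR. Leaving out each library in turn, E2f4 ran from -0.55 to 0.11 and E2f5 from -0.16 to 0.01 with etoposide in DKO cells. Between control cells E2f4 ran from -0.20 to 0.52, E2f6 from -0.25 to 0.01, E2f8 from -0.26 to 0.08 and Tfdp2 from -0.09 to 0.07. In the interaction E2f3 ran from -0.06 to 0.01, E2f4 from -0.13 to 0.59 and E2f6 from -0.24 to 0.01. The cause was not tested.

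The members held 230 to 19746 counts in a library. Counting error was largest for E2f5, up to 0.0951 on the log2 scale against an SD of 0.139 between replicates. With 3 libraries per group, 1 line per genotype and 1 dose and time, small differences such as those of E2f5 and E2f6 were near the spread between libraries.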
